A study of Arabidopsis thaliana with 20 samples.

Results

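Gene-body peaks are HSFA1d peaks with listed bases inside a protein-coding gene and none in a listed promoter of a coding gene. Sequence between annotated features is not listed, so such a peak may reach past its gene. The fewest listed bases were 2 bp in W10min and 4 bp in HS. A peak counted as one when at least 1 of its annotated rows lay in a coding gene, no row lay in the promoter of a coding gene and no row lay in a transposable element gene. A stretch of 450 kb on chromosome 2, from 3.2 Mb on, was left out. The rule gave 584 gene-body peaks of 7502 joined peaks in the 6 deposited lists, and they fell into 417 loci and 374 genes. Promoter rows in the lists were up to 3001 bp wide, so a gene-body peak also lay clear of the listed promoters of neighbouring genes. Some members still began next to the start of their own gene, 2 bp past it at IAA9 and 3 bp past it at GID1B in HS. Others lay further in, such as PIF4 in HS from 737 bp on.

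The peaks come from chromatin immunoprecipitation and sequencing of whole Arabidopsis thaliana seedlings, 2 weeks old, of mixed Col-0 and Ws background and grown at 22 °C in constant light. Every sample, input and time 0 included, carried pHSFA1d::HSFA1d-GFP, which is HSFA1d joined to GFP and driven by its own promoter, and the fusion was pulled down with an antibody against GFP. HS was 30 min at 37 °C and HT0 its time 0, both with 3 ChIP samples and 3 inputs, a sample being about 60 pooled seedlings. WT0 (wounding time 0), W10min, W3h and W24h were 0 min, 10 min, 3 h and 24 h after seedlings were cut repeatedly with a blade, with 1 ChIP sample and 1 input at each time. The authors concatenated the reads of a condition and called 1 list from them, so the values carry no spread between replicates of a condition. The depth of a list is known only as a floor of 10 M mapped reads a library.

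Class A1 heat shock factors wait in the cytosol, held by HSP70 and HSP90 chaperones. When proteins unfold they are set free, enter the nucleus and bind heat shock elements, which usually lie close upstream of chaperone genes. Binding inside a gene is therefore the less typical position.

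HS held the most gene-body peaks. There were 175 in HS and 56 in HT0. In the wounding series WT0 held 138, W10min 117, W3h 51 and W24h 47. As a share of all peaks outside the left-out stretch, they made up 9.15% in HS (exact Clopper-Pearson 95% interval 7.90 to 10.5) and 4.84% in HT0 (3.68 to 6.24). The share was 9.76% in WT0 (8.26 to 11.4), 8.50% in W10min (7.08 to 10.1), 9.12% in W3h (6.87 to 11.8) and 10.8% in W24h (8.01 to 14.04). These intervals cover counting error only. HT0 had the lowest share and the intervals of the other five overlapped each other. Among peaks with a q of at most 0.05 the share was 8.12% in HS and 4.94% in HT0. Among peaks with a q of at most 1e-05 the gap was small, 6.58% in HS and 6.02% in HT0. That HT0 share rests on 8 gene-body peaks, 3 of them pieces at AT2G01008. The lists also differ in another class: in HS 404 of 1912 peaks and in HT0 510 of 1156 touched a transposable element gene, and in WT0 91 of 1414. Among peaks that touched a coding gene in any part the order differed. The gene-body class made up 22.1% of 791 such peaks in HS and 30.4% of 184 in HT0. In the wounding lists the share was 22.3% of 619 at WT0, 17.9% of 653 at W10min, 22.1% of 231 at W3h and 33.8% of 139 at W24h.

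The left-out stretch held further peaks that met the rest of the rule, 19 in HS and 16 in HT0, with 5, 4, 3 and 4 in WT0, W10min, W3h and W24h. In HS their fold enrichment ran from 1.70 at AT2G07777 to 2.28 at AT2G07728. The gene-body peaks nearest to it on either side in HS were at AT2G06570 (1.76-fold) and AT2G14060 (1.35-fold).

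Most gene-body peaks were weak. Fold enrichment is the authors' own ratio for each peak, and it ranks peaks only within a list. Its median was 1.72 in HS (lowest 1.29, highest 5.35) and 1.61 in HT0 (1.34 to 2.35). It was 1.82 in WT0 (1.42 to 3.66), 1.90 in W10min (1.39 to 4.31), 1.80 in W3h (1.40 to 3.28) and 1.81 in W24h (1.35 to 3.50). The q-value is the authors' significance of a peak adjusted over its list, and the lists were not cut at a fixed q. In HS 75 of 175 peaks and in HT0 26 of 56 had a q of at most 0.05. In WT0 60 of 138 did, in W10min 61 of 117, in W3h 29 of 51 and in W24h 22 of 47. The stricter 1e-05 left 24, 8, 8, 12, 6 and 5 peaks in the same order of lists. Pieces of 1 locus count separately in these numbers. All 5 in W24h lay at AT2G01008, AT2G01023, AT2G16586 and AT1G40104, as did the 5 highest peaks of WT0. AT2G01008 alone gave 4 of the 24 in HS and 3 of the 8 in HT0. In HS 26 gene-body peaks had a q of 1. The highest share at 0.05, in W3h, was 56.9%, so many members of the class are weak peaks.

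**Figure D1:**
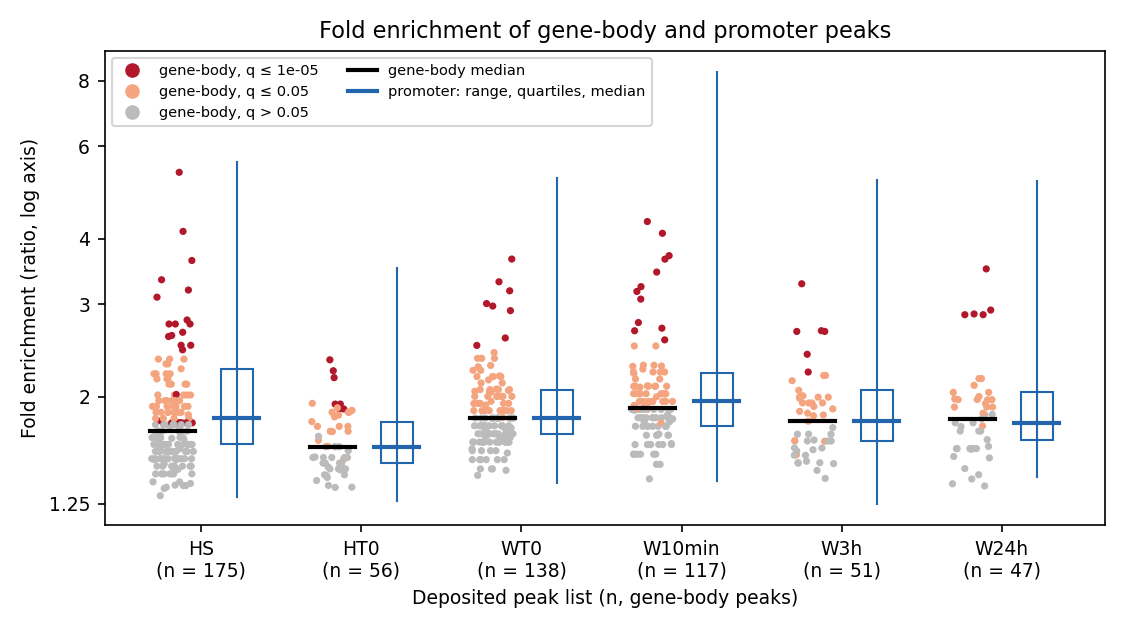
Fold enrichment (ratio, log axis) of every gene-body peak in each list, as points coloured by q, with the median as a black line. The boxes and whiskers give the median, quartiles and range of promoter peaks. The medians of both classes lie between 1.61 and 1.96, while promoter peaks reach 8.30 in W10min and gene-body peaks reach 5.35 in HS.

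Gene-body peaks were set against promoter peaks of the same lists, which share libraries and depth with them. Promoter peaks numbered 1323 in HS and 582 in HT0, and 1181, 1118, 373 and 180 in WT0, W10min, W3h and W24h. The median fold was 1.72 for gene-body peaks and 1.82 for promoter peaks in HS. It was 1.61 for both in HT0, 1.82 for both in WT0 and 1.80 for both in W3h. In W10min it was 1.90 for gene-body and 1.96 for promoter peaks, and in W24h 1.81 for gene-body and 1.78 for promoter peaks. Over the 6 lists the difference, gene-body minus promoter, averaged -0.02 ± 0.05 (SD, n = 6 lists; exact two-sided paired permutation test, p = 0.5, adjusted p = 0.8125 over 5 measures). The share at q of at most 1e-05 was lower for gene-body peaks in 5 lists and higher in HT0, with a mean of 11.1% for gene-body and 13.6% for promoter peaks. That difference of -2.48 ± 4.67 percentage points had an adjusted p of 0.546875 (exact permutation, n = 6 lists). Pieces of 1 locus count separately in both shares. The share at q of at most 0.05 differed by -0.823 ± 5.83 points and the median listed width by -7 ± 22.6 bp (exact permutation, adjusted p = 0.8125 each, n = 6 lists). The smallest p that 6 lists allow is 0.03125, and 1 measure alone cannot go below an adjusted 0.15625, so these tests could not have passed 0.05 for a single measure. Lists that share sites are not wholly independent. The gap was widest in HS, where 13.7% of its gene-body peaks and 23.9% of its promoter peaks had a q of at most 1e-05, and the median listed width was 112 bp for gene-body and 164 bp for promoter peaks. Listed widths are lower bounds, since sequence between annotated features has no row in the lists.

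The 5 highest gene-body peaks of HS lay in 4 regulators of growth, flowering and patterning and in AT2G46735, which has no symbol in the annotation used, and none was in a chaperone gene. SOB3 (AT1G76500), an AT-hook protein that restrains seedling stem growth, stood first at 5.35-fold (chromosome 1, 28705542 to 28706427, TAIR10). PIF4 (AT2G43010), a bHLH factor that promotes growth in warmth and shade, stood at 4.13-fold (chromosome 2, 17887164 to 17887805), from 737 to 1378 bp past the start of the gene. AT2G46735 followed at 3.63-fold (chromosome 2, 19204672 to 19205112). CDF1 (AT5G62430), a DOF factor that delays flowering, stood at 3.34-fold (chromosome 5, 25069996 to 25070493), from 441 to 938 bp past the gene start. TRN2 (AT5G46700), a tetraspanin needed for leaf and root patterning, stood at 3.19-fold (chromosome 5, 18951578 to 18952387). For comparison, the highest promoter peak of HS stood at 5.60-fold.

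SOB3 and PIF4 were also listed at time 0 and the other 3 were not. Folds of different lists are set side by side here and were not tested. SOB3 had 5.35-fold in HS (q = 2.35e-39) and 1.88-fold in HT0 (q = 4.39e-05), at almost the same bases. PIF4 had 4.13-fold in HS (q = 1.51e-30) and 2.17-fold in HT0 (q = 1.32e-07). Among the gene-body peaks it was number 2 in HS and number 3 in HT0. No wounding list held a peak at either locus. AT5G53110 had 2.01-fold in HS (q = 0.00206) and 2.35-fold in HT0 (q = 7.58e-08), the highest gene-body peak of HT0, so here the untreated list held the higher value. In all, 20 loci had a gene-body peak in both HS and HT0, and 9 of them had no peak of any kind in the 4 wounding lists. Loci of other classes were not counted in this way. The HS value was higher in 7 of those 9. They included LBD37, a repressor of nitrogen-response genes, with a weak peak of 1.72-fold in HS (q = 0.110) and 1.53-fold in HT0 (q = 0.432). The remaining loci of the 9 were AT1G45223, AT2G06570, AT2G15420, AT3G30383 and AT3G30385, between 1.34-fold and 2.02-fold in HS and between 1.45-fold and 1.84-fold in HT0.

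In HS 149 of 175 gene-body peaks (85.1%) met no HT0 peak of any class, where to meet is to overlap by at least 1 bp. Among all HS peaks the share was 73.6%. In W10min 81 of 117 (69.2%) met no WT0 peak, beside 67.4% of all peaks, and in W24h 20 of 47 (42.6%), beside 64.1%. In W3h 22 of 51 (43.1%) met none, beside 53.5%. Whether a list gains gene-body peaks more than others was not tested, since each condition has 1 list. The peaks free of time 0 had a lower median fold than the rest in each treated list. In HS their median fold was 1.68, against 1.78 for those that met an HT0 peak, and 61 of the 149 free peaks and 14 of the 26 others had a q of at most 0.05. In W10min the median was 1.89 for free peaks and 2.03 for the others, in W3h 1.67 for free peaks and 1.91 for the others, and in W24h 1.66 for free peaks and 1.94 for the others. At a q of at most 1e-05, HS held 14 peaks free of time 0 and W10min held 5, whereas W3h and W24h held 0.

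The strongest gene-body peaks free of time 0 were AT2G46735, CDF1 and TRN2 in HS, given above. In W10min they were AT2G45180 at 3.71-fold, of which only 3 bp are listed in the gene, AT2G46735 at 3.24-fold and CDF1 at 3.17-fold. Overlap was judged on listed bases alone. For AT2G45180, being free of time 0 therefore covers those 3 bp and not the rest of the peak. In W3h PSBP-1, a subunit of the oxygen-evolving complex, stood at 2.19-fold, HSFA7A, a heat-induced heat shock factor, at 1.99-fold and SSL2 at 1.94-fold. The HSFA7A peak met an HS peak of another class. In W24h AT3G55650 stood at 2.16-fold, RALFL34, which encodes a small signalling peptide, at 2.10-fold and AT5G39120 at 1.97-fold. W24h had the fewest of these at q of at most 0.05, 4 of 20.

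Heat and early wounding shared gene-body sites that neither time 0 list held. In W10min 18 of 117 gene-body peaks (15.4%) met an HS peak, beside 35% of all W10min peaks, and 11 of the 18 were free of both time 0 lists. From the other side, 22 of 175 HS gene-body peaks (12.6%) met a W10min peak, beside 26.5% of all HS peaks. Both shares, 15.4% and 12.6%, lie below the value for all peaks of the list. How many shared peaks of any class were free of both time 0 lists was not counted, so the 11 have no such value beside them. With the peak inside the gene in both lists, 10 loci were free of both time 0 lists. BAG5, a partner of HSP70, had 2.36-fold in HS (q = 1.0e-05) and 1.89-fold in W10min (q = 0.0674). CDF1 had 3.34-fold in HS and 3.17-fold in W10min, and also 1.94-fold in W3h. AT2G46735 had 3.63-fold in HS and 3.24-fold in W10min. TRN2 had 3.19-fold in HS and 2.30-fold in W10min. AN3, a coactivator that keeps leaf cells dividing, had 2.11-fold in HS and 1.96-fold in W10min. PBRP, a plant relative of the general factor TFIIB, had 2.21-fold in HS and 2.09-fold in W10min. AT4G39790 had 2.26-fold in HS and 1.96-fold in W10min. EPF2, a secreted peptide that limits entry into the stomatal lineage, was weak, with 1.42-fold in HS (q = 1), 1.89-fold in W10min (q = 0.0674) and 1.60-fold in W3h (q = 0.537). AT3G05670 was higher in W10min (1.92-fold in HS, 2.50-fold in W10min), as was AT5G54300 (1.62-fold in HS, 1.89-fold in W10min). The q-value was at most 0.05 in both lists for 7 of the 10, the exceptions being BAG5, EPF2 and AT5G54300.

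The wounding lists shared a second group of sites, many of them in genes of chloroplast proteins. In W3h 29 of 51 gene-body peaks (56.9%) met a WT0 peak, in W24h 27 of 47 (57.4%) and in W10min 36 of 117 (30.8%). The shares of all peaks of these lists that met no WT0 peak are given above. From the WT0 side, 36 of 138 (26.1%) met a W10min peak, 28 (20.3%) a W3h peak and 22 (15.9%) a W24h peak. The share of all WT0 peaks that met each of these lists was not counted, so these counts have no such value beside them. In 24 loci at least 3 of the 4 wounding lists held a gene-body peak, and 18 of these had no peak of any class in HS or HT0. The matching count for loci of other classes was not made. Of the 18, 9 were in genes of the 23-gene photosynthesis list. They are LHCB1.2, LHCB3, LHCB5 and LHCB4.1 (at 2 places) of the photosystem II antenna, LHCA2 and LHCA4 of the photosystem I antenna, PSAF of photosystem I and RBCS3B, a small subunit of Rubisco. PSAG, a photosystem I subunit, and PSBX and PSBY, small proteins of photosystem II, were among the 18 too but not on that list. The other members were EXT4, a cell wall extensin, PRXR1, a peroxidase, ATMS1, a methionine synthase, VSP2, AT1G09310 and a peak that spanned AT5G02370 and the metallothionein gene MT2B.

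Each of the 18 loci had a peak of some class in WT0, the list of unwounded seedlings. WT0 was among the 4 lists used to pick the loci, so this was largely set by the choice. LHCA4 had 2.50-fold in WT0, 2.67-fold in W10min and 1.94-fold in W3h, with no peak in W24h. PSAF had 2.29-fold in WT0, 2.70-fold in W10min and 2.06-fold in W3h at one place. LHCB5 had 2.28-fold in WT0, 1.99-fold in W3h and 2.16-fold in W24h. These values moved in no common direction over the time course. LHCB4.1, antenna protein CP29, carried a pair of sites in all 4 wounding lists. The one at chromosome 5, 209097 to 209613, had 2.12-fold, 1.69-fold, 2.19-fold and 2.04-fold in WT0, W10min, W3h and W24h. The one at 209962 to 210423 had 2.07-fold, 1.95-fold, 2.41-fold and 1.39-fold. LHCB1.2 had 3.07-fold in W10min (q = 6.59e-10), 1.91-fold in W3h and 1.54-fold in W24h, and its WT0 peak at the same place was of another class.

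Of the 23 photosynthesis genes, 0 had a gene-body peak in HS or HT0, whereas WT0 listed 10, W10min 6, W3h 9 and W24h 7. Over all 27432 coding genes the share with a gene-body peak was 0.576% in HS and 0.171% in HT0, and it was 0.481%, 0.397%, 0.179% and 0.16% for WT0, W10min, W3h and W24h. The gene lists were chosen with earlier results of these data known, so a share above that of all coding genes is not a test. Promoter peaks named 3 of the 23 in HS and 1 in HT0, and 17, 13, 9 and 10 in WT0, W10min, W3h and W24h. A promoter peak names every gene with a promoter row or gene row in it, so it need not lie in that gene's own promoter. The share of all coding genes named by a promoter peak was 7.05% in HS and 2.67% in HT0, then 6.47%, 6.53%, 2.13% and 1.05% along the wounding series. In WT0, 3 of the 10 had no promoter peak in that list, and in W3h 7 of the 9. The untreated lists HT0 and WT0 differ here although neither was treated. The heat and wounding series were separate experiments, with 3 ChIP samples pooled in one and 1 in the other, and series and gene group cannot be told apart. Of 18 housekeeping genes of high expression, 5 had a gene-body peak in some list. HS and HT0 listed 0, WT0 listed 3, W10min 2, W3h 3 and W24h 1. The highest was EF1A1, a translation elongation factor, at 2.37-fold in WT0 (q = 5.57e-05). UBQ10, UBQ11, EF1A4 and GAPC2 stood between 1.50-fold and 1.91-fold. Both groups hold strongly transcribed genes, whose DNA chromatin immunoprecipitation can recover with any antibody. No line without the fusion was analysed here, and the part of such recovery was not tested.

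**Figure D2:**
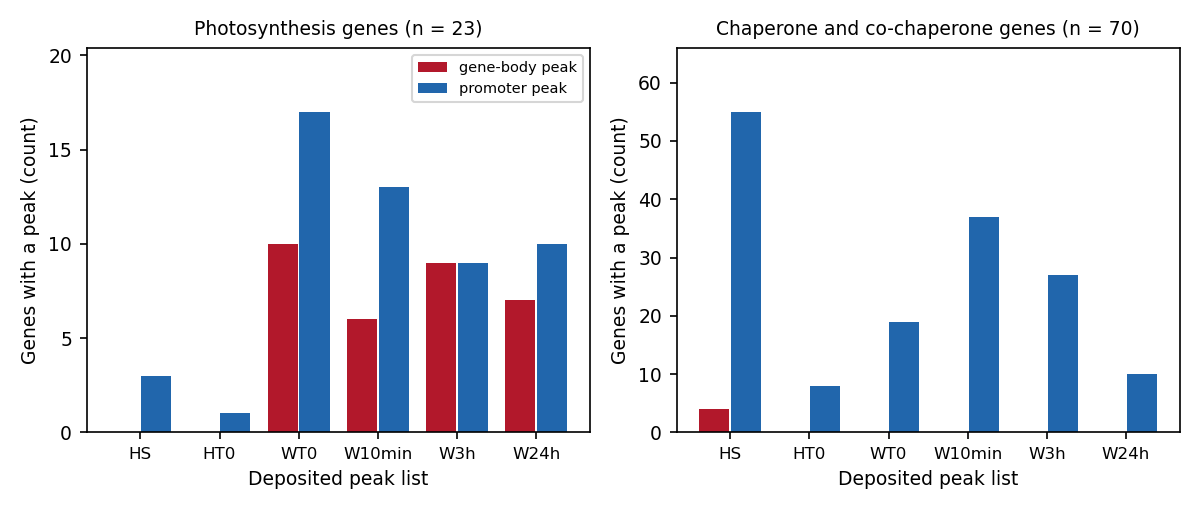
Number of genes named by a gene-body peak (red) or a promoter peak (blue) in each list, for 23 photosynthesis genes on the left and 70 chaperone and co-chaperone genes on the right. A promoter peak names every gene with a promoter row or gene row in it. Photosynthesis genes have gene-body peaks in the 4 wounding lists and 0 in HS or HT0, while chaperone genes have 55 promoter and 4 gene-body entries in HS.

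Chaperone genes, the best known targets of heat shock factors, were listed mostly by promoter peaks. Of 70 chaperone and co-chaperone genes, 4 (5.71%) had a gene-body peak in HS, beside 0.576% of all coding genes, so the count lies above that share. These genes too were chosen with earlier results of these data known, so that excess is not a test. The other five lists held 0 of the 70, beside at most 0.481% of all coding genes, and a list of this size would hold about 0 at such shares. Promoter peaks, by a promoter row or gene row, named 55 of the 70 in HS and 8 in HT0. They named 19, 37, 27 and 10 in WT0, W10min, W3h and W24h. The 19 small heat shock protein genes had 0 gene-body peaks in every list, and 17 were named by a promoter peak in HS. The 4 genes in HS were HOP3, which bridges HSP70 and HSP90, the cytosolic HSP90.1 and HSP90.2, and BIP2, an HSP70 of the endoplasmic reticulum. HSP90.1 stood at 1.62-fold (q = 0.350), BIP2 at 1.57-fold (q = 0.599) and HSP90.2 at 1.52-fold (q = 0.638). HOP3 had 3 such peaks between 1.47-fold and 1.52-fold, all with q of at least 0.993. None of these reached a q of 0.05, and 3 of the 4 genes, all but BIP2, were also named by a separate promoter peak in HS. The 70 do not cover every chaperone, and these statements on q hold for the 70 alone. Other genes of chaperone type were not searched for as a set. Outside the 70, BAG5 had 2.36-fold in HS (q = 1.0e-05), as given above. J8, a J-domain protein, had 1.61-fold in HT0 (q = 0.155). A peak of 1.82-fold in WT0 spanned the chaperonin gene CHL-CPN10 and AT2G44660. J8 and CHL-CPN10 were named after their values were seen.

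Among 21 heat shock factor genes, 2 had a gene-body peak in any list, HSFA1D and HSFA7A. That is 1 of 21 (4.76%) in each list but W3h, which had 2 (9.52%), beside 0.16% to 0.576% of all coding genes. HSFA1D was listed in each of these lists, and HSFA7A in W3h alone. This gene list too was chosen with earlier results of these data known, so that excess is not a test. HSFA1D, the gene of the precipitated protein, was listed in all lists, with 1.68-fold in HS (q = 0.00342) and 1.52-fold in HT0 (q = 0.0180). It had 1.67-fold in WT0, 1.92-fold in W10min, 1.55-fold in W3h and 1.59-fold in W24h. These peaks lay 1870 to 2993 bp past the start of the gene, and those of WT0 and W24h did not meet. The line carries an added copy of HSFA1d, and reads of that copy and of the native gene cannot be told apart here.

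Of 20 jasmonate and early wound genes, 3 had a gene-body peak in some list. HS and HT0 listed 0 of the 20, and WT0 listed 2, W10min 3, W3h 1 and W24h 1. These are 10%, 15%, 5% and 5% of the 20, above the 0.481%, 0.397%, 0.179% and 0.16% of all coding genes. This gene list too was chosen with earlier results of these data known, so that excess is not a test. VSP2, a storage protein that serves as a jasmonate marker, had 2.59-fold in WT0 (q = 9.47e-07), 2.21-fold in W10min and 2.01-fold in W3h. AOS, the enzyme that commits lipid peroxides to jasmonate, had 1.88-fold in WT0, 2.23-fold in W10min at another place in the gene and 1.97-fold in W24h. OPR3, a later enzyme of the same route, had 1.96-fold (q = 0.0319) and 1.76-fold (q = 0.270) in W10min alone. So VSP2 and AOS were listed before any cut was made. The 20 do not cover every jasmonate gene. Outside them, AOC4 had 1.92-fold in HS (q = 0.00833), and in WT0 DAD1 had 1.76-fold (q = 0.179) and JR1 1.52-fold. These 3 were named after their values were seen. Of 14 regulators of reprogramming, 2 had a gene-body peak, with 1 (7.14%) in each of HS, WT0, W10min and W3h. The shares of all coding genes there were 0.576%, 0.481%, 0.397% and 0.179%. These 14 were chosen in the same way, so this excess is not a test either. WOX11, a homeobox factor of new root founder cells, had 2.77-fold in W10min (q = 3.63e-07; chromosome 3, 891542 to 892148) and no peak there in any other list. WIND1, a transcription factor that drives callus formation where tissue is cut, had weak peaks of 1.67-fold in HS (q = 0.199) and 1.70-fold in W3h (q = 0.169) at one place, and 1.64-fold in WT0 (q = 0.603) at another place in the gene.

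A minority of the genes were named by both kinds of peak in 1 list, where a promoter peak names a gene by a promoter row or a gene row. Gene-body peaks named 159 genes in HS and 48 in HT0, of which 34 (21.4%) and 10 (20.8%) were also named by a promoter peak of the same list. In WT0 the count was 31 of 136 (22.8%), in W10min 26 of 109 (23.9%), in W3h 8 of 49 (16.3%) and in W24h 6 of 44 (13.6%). These shares lie above the share of all coding genes named by a promoter peak in each list, given above. Of the 584 gene-body peaks, 24 had another peak of equal fold and q within 1000 bp in their list and may be pieces of 1 peak that the annotation split.

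Of the 417 loci, 327 had a gene-body peak in 1 list only, 54 in 2, 20 in 3, 11 in 4, 1 in 5 and 4 in all. HS alone accounted for 129 of the single-list loci, WT0 for 81, W10min for 65, HT0 for 24, W24h for 17 and W3h for 11. Counted against peaks of any class, 28.6% of HS gene-body peaks met a peak of another list, beside 50.2% of all HS peaks. The share was 69.6% in HT0, beside 62.9% of all peaks. It was 41.3% in WT0, beside 47.4%, and 46.2% in W10min, beside 55.8%. In W3h it was 80.4%, beside 78.9%, and in W24h 68.1%, beside 70.7%. Over the lists gene-body peaks met another list less often than promoter peaks in 4 and more often in 2, with a mean difference of -4.82 ± 8.62 percentage points (exact two-sided paired permutation test, p = 0.21875, adjusted p = 0.546875, n = 6 lists). The widest gap was in HS, 28.6% for gene-body and 47.6% for promoter peaks.

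**Figure D3:**
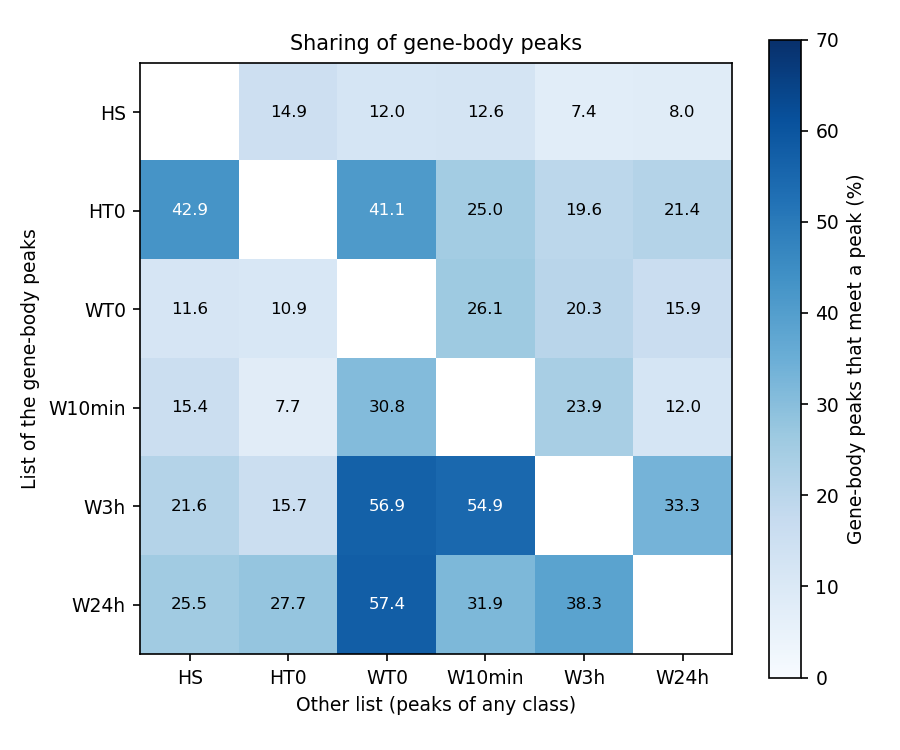
Share (%) of the gene-body peaks of each list (rows) that meet a peak of any class in another list (columns) by at least 1 bp. The short W3h and W24h lists meet WT0 for 56.9% and 57.4% of their gene-body peaks, while HS meets no other list for more than 14.9%.

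The 4 loci in every list were HSFA1D, AT2G01008, AT2G01023 and AT2G16586. A locus chains overlapping peaks, so its peaks need not all meet each other. At HSFA1D the WT0 peak did not meet the W24h peak. AT2G01008 and AT2G01023 lie at the end of chromosome 2, at 1041 to 2810 and 9648 to 9698, on either side of rows that the lists give to the ribosomal RNA genes AT2G01010 and AT2G01020. AT2G16586 (chromosome 2, 7190969 to 7191514) had the highest gene-body peak of 4 lists, with 3.66-fold in WT0, 4.31-fold in W10min, 3.28-fold in W3h and 3.50-fold in W24h. It had 1.78-fold in HS and 1.89-fold in HT0. Exactly that HS fold was carried by 22 peaks of the HS list, and exactly that HT0 fold by 14 peaks of the HT0 list. AT2G01023 had the same values in HS and HT0. AT1G40104 (chromosome 1, 15081954 to 15085893) was a gene-body peak in 4 lists and had a peak of some class in all. It reached 3.31-fold in WT0, 3.66-fold in W10min and 2.92-fold in W24h, and 1.78-fold in HS. Among gene-body peaks AT2G16586 ranked first in WT0 as it did after wounding. AT3G60966 was listed in 5 lists, all but W10min, between 1.57-fold in HS and 1.93-fold in WT0. Its HS and HT0 peaks did not meet. GAD2, a glutamate decarboxylase, had 1.66-fold in HS, 1.72-fold in HT0, 1.67-fold in WT0 and 1.63-fold in W10min. The HS and WT0 peaks of GAD2 did not meet. AT2G14060 stood at 1.85-fold in HS and 1.83-fold in HT0, and at 1.74-fold in WT0 and 1.97-fold in W24h. EDA34, a gene named for arrested embryo sacs, had 1.34-fold in HS, 1.61-fold in HT0, 1.78-fold in W10min and 1.61-fold in W24h.

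The loci in all 4 wounding lists and in neither heat list numbered 7. Beside both LHCB4.1 sites they were PSBX, with 2.37-fold, 1.79-fold, 1.55-fold and 1.91-fold in WT0, W10min, W3h and W24h, and PSBY, with 1.56-fold, 2.10-fold, 1.85-fold and 1.98-fold. RBCS3B had 2.05-fold, 2.29-fold, 1.65-fold and 1.86-fold in the same order. PRXR1 had 2.15-fold, 1.94-fold, 1.65-fold and 1.97-fold, and EXT4 1.45-fold, 1.81-fold, 2.23-fold and 1.36-fold. No list was highest at all of the 7.

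**Figure D4:**
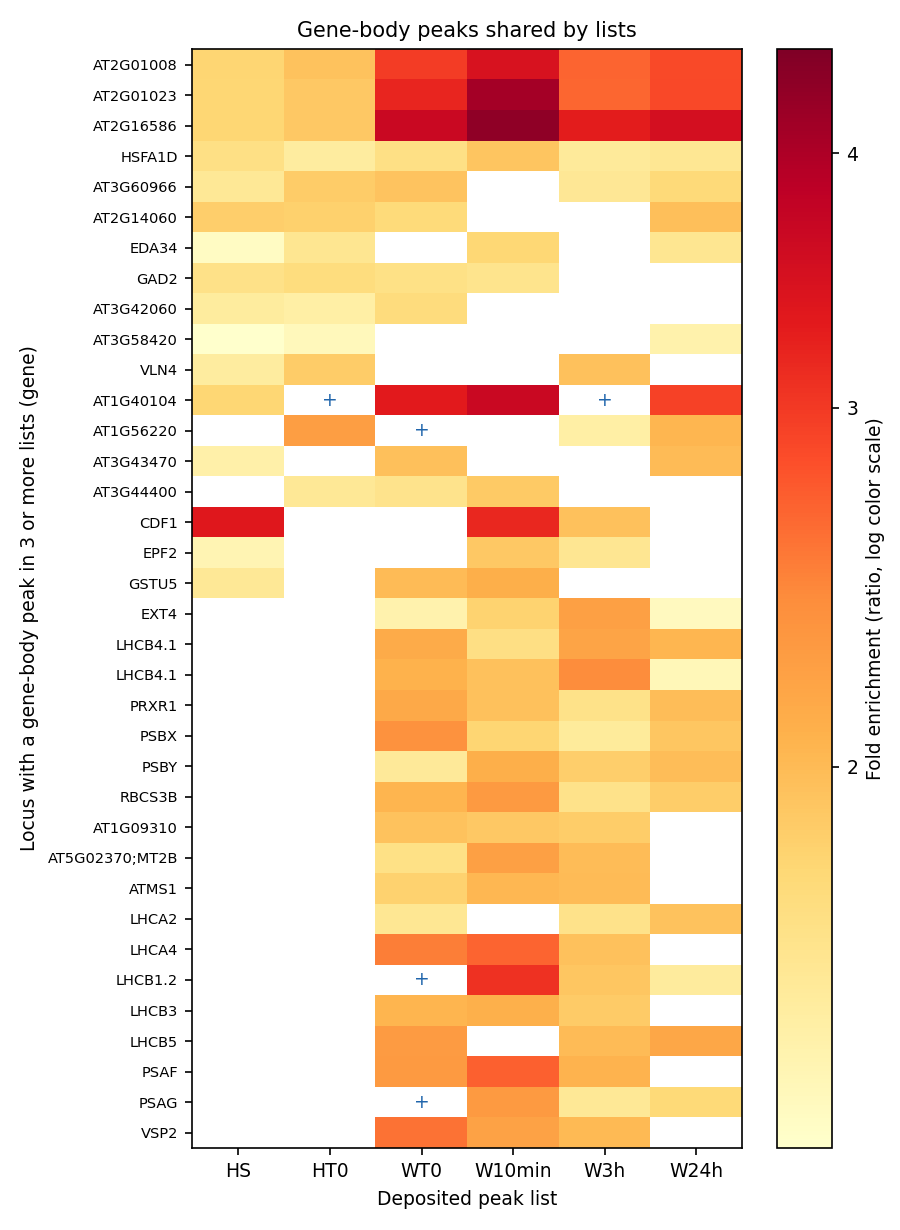
Fold enrichment (ratio, log color scale) at each locus with a gene-body peak in 3 or more lists, loci in rows and lists in columns. White means no peak and a blue cross a peak of another class. The upper rows are loci with a peak in HS or HT0, and the lower rows, from EXT4 to VSP2, are 18 loci with no peak in HS or HT0.

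The other high gene-body peaks of HT0 were also shared with wounding lists. AT1G56220 had 2.24-fold in HT0, 1.50-fold in W3h and 2.04-fold in W24h as a gene-body peak, and in WT0 its peak was of another class. AT5G25280 stood at 1.94-fold in HT0 and its peak met one in WT0. Both were listed in untreated seedlings of both series.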

How the data were processed

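The submitters' processing notes name Bowtie2, SAMtools, MACS2 and the build TAIR10, with no version. Per the labels, reads were concatenated, so the authors deposited 1 peak list per condition (10 ChIP and 10 input samples in all, of about 60 seedlings each). Per the file headers, the deposited values are the fold enrichment of a peak, a linear ratio as the authors computed it, and the −log10 of its q-value, also the authors' own, which was turned back into q. Depth is known only as at least 10 M mapped reads of 50 bases per library. All 6 lists were used.

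The annotation had split peaks over rows, and rows of equal fold and q in a list were put back together where they overlapped or lay no more than 1 base apart, and 1 was added to starts, which count from 0. Promoter peaks had a promoter row and no row in a transposable element gene, and such a peak named every gene with a promoter or gene row in it. Of 2277 peaks with both gene and promoter rows, 1674 had rows of the 2 kinds that overlapped, so annotation classes are not exclusive. Peaks met when they shared at least 1 listed bp. Linked gene-body peaks of all lists formed a locus, so peaks of 1 locus need not all meet each other. A RefSeq table (TAIR10.1) gave gene names and the 27432 coding genes, and none of its coordinates was used. Gene starts were read from adjoining promoter and gene rows of the lists. The 2 classes were compared with an exact paired permutation test over lists, with Benjamini-Hochberg adjustment over 5 measures. Conditions were not tested. Steps were tested on simulated data with Python 3.11.15, pandas 2.3.3, numpy 2.4.6 and scipy 1.17.1.

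The members and the 9 gene lists (166 genes) were chosen with earlier results of these data known. Genes named are the 5 highest by fold in each list, loci in at least 4 lists, up to 4 members per gene list, the 3 highest per treated list that met no time 0 peak, and members of the sets of shared loci.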

Additional observations from a re-analysis of the deposited data

How the results depend on the processing

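Of 135 alternative values, 83 kept their direction and stayed within the limits set for size, 50 moved further and 2 reversed. The limits do not mean an equal size. The W24h count of 47 stayed within them at 66, when only rows that share a base were joined. A q of at most 0.05 left 75 gene-body peaks in HS and 26 in HT0, and 60, 61, 29 and 22 in WT0, W10min, W3h and W24h, which named 71, 23, 60, 60, 28 and 21 genes. A q of at most 1e-05 left 24, 8, 8, 12, 6 and 5, and the class then made up 6.58% of HS, 6.02% of HT0 and 6.38% of W10min. Joining only rows that share a base gave 338, 92, 284, 264 and 96 in HS, HT0, WT0, W10min and W3h, since a single base parts promoter from gene rows, and without joining there were 853, 190, 641, 676, 238 and 141 gene rows, W24h last. With the same 437 peaks from every list the class made up 6.64% of HS, 5.26% of HT0 and 6.64% of W10min. Then 6.90% of HS gene-body peaks met HT0, 36.6% of W3h and 34.0% of W24h met WT0, and 20.7% of HS, 52.5% of WT0, 62.1% of W10min, 63.4% of W3h and 48.9% of W24h met any list. With 50% reciprocal overlap, 39.2% of W3h and 29.8% of W24h met WT0, and 15.4% of HS, 48.2% of HT0, 29.7% of WT0, 35.0% of W10min, 58.8% of W3h and 42.6% of W24h met any list. With q of at most 0.05 in both, 81.8% of W24h met any list. The difference in the share at q of at most 1e-05 turned to 2.24 points among peaks no wider than the median of their list, and that in median width to 0.125 bp in the wounding series alone, and the cause was not tested. Leaving out pieces near a peak of equal fold and q, or loci in all lists, were alternatives chosen after seeing the data and stayed within the limits. No paired analysis was possible because each condition has 1 pooled list and the heat samples that share replicate numbers have no list of their own. Depth per list is unknown, so a site missing from W3h or W24h may be below detection there.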

Other observations

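Some strong gene-body peaks lay in 1 list alone and belong to no set above, and they were chosen after their values were seen. In HS the highest was AT3G14200 (3.09-fold, q = 1.42e-11), and others included PPI2, which interacts with the plasma membrane proton pump (2.80-fold, q = 9.30e-09), RANBP1, which acts with the Ran GTPase in nuclear transport (2.75-fold, q = 2.55e-08), and BIM1, a bHLH factor of brassinosteroid signalling (2.60-fold, q = 4.44e-07). PIF4 had a second peak in HS, of 2.75-fold, from 1481 to 1544 bp past the gene start. None of these peaks met a peak in another list. In W10min ACS2, an enzyme of ethylene synthesis, had 2.23-fold (q = 0.00114) in that list alone. NIA2, a nitrate reductase, had 2.16-fold in W10min and 1.60-fold in W3h, with no peak there in WT0. GSTU5, a glutathione transferase, had 1.57-fold in HS (q = 0.599), 2.00-fold in WT0 and 2.09-fold in W10min.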
